A study of Danio rerio with 2 samples.

Results

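The cells described here were taken as her15.1-positive epithelial progenitors of the adult zebrafish intestine, from single-cell RNA sequencing of whole intestines. Cells entered the set (called members below) by a rule on their own counts. A member had at least 1 UMI of her15.1, UMIs of at least 2 of the 5 companion genes dld, stmn1a, sox4a, myb and neurl1aa, no UMI of neurod1 or ptprc, and UMIs of fewer than 3 of the 4 cycling genes aspm, mki67, top2a and ube2c. A UMI, or unique molecular identifier, marks 1 captured transcript. The rule was met by 247 of 11490 deposited cells, 152 of 5891 from the WT library and 95 of 5599 from the nod2-/- library. Whether each member is a progenitor was not tested. Of them, 69 WT and 28 nod2-/- members also reached a marker cutoff of a differentiated cell type, as given below. The WT library was made from TL fish (nod2+/+) and the nod2-/- library from fish with a frameshifting deletion in nod2, the gene for an intracellular sensor of bacterial wall fragments. Both sets of fish were cohoused siblings of a heterozygous in-cross at 6 months of age, and each library pooled the intestines of 5 fish, 2 males and 3 females. With 1 library per genotype, no difference between genotypes could be tested, and the intervals given below are 95% exact intervals that cover counting error only.

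Progenitors at the base of the intestinal folds renew the zebrafish gut epithelium. Notch signaling between neighboring cells sorts their descendants: a cell that displays a Delta ligand activates Notch on the cells beside it, the cleaved receptor enters the nucleus with the RBPJ protein, and Hairy/Enhancer-of-split repressors, which in fish are called her genes, are switched on. In the mammalian and fish gut, cells with active Notch tend toward the absorptive fate, and cells that escape it express ATOH1 family factors and tend toward secretory fates. Because members were picked for her15.1, a her gene, and for the Delta ligand dld, the levels of all rule genes are descriptions of the choice and not results.

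Members were deeper than other cells. They held a median of 7763 UMIs (range 652 to 55415) in WT and 4429 (535 to 49497) in nod2-/-, against medians of 3281 and 1908.5 in all other cells. Summed over members, the libraries held 1891651 UMIs in WT and 626002 in nod2-/-. The median share of mitochondrial UMIs was 1.78% in WT members and 1.76% in nod2-/- members, and no member exceeded 25%. Both libraries shared 10 cell barcodes, and 1 of these belonged to a WT member. Transcripts of nod2 itself were counted 6 times in 6 WT members and 2 times in 2 nod2-/- members (3.17 and 3.19 CPM, or UMIs for each 1e+06 counted). Because the allele is a small deletion, these counts do not check the genotype labels.

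Among members, neurl1aa was the companion most often detected (126 of 152 WT and 75 of 95 nod2-/- members), followed by sox4a (108 and 59), dld (96 and 50), stmn1a (75 and 47) and myb (74 and 28). The median member carried 0 stmn1a UMIs, while the highest held 26 in WT and 20 in nod2-/-, so this gene was unevenly spread. Many members lay close to the threshold. Her15.1 was present as a single UMI in 37 WT and 27 nod2-/- members, and exactly 2 companions were detected in 46 and 50. Just outside the rule stood 95 WT and 92 nod2-/- cells with her15.1 and fewer than 2 companions, and 273 and 170 cells with at least 2 companions and no her15.1 UMI. Only 3 WT cells and 7 nod2-/- cells that otherwise qualified were left out for cycling genes, 3 and 1 for neurod1, and 1 and 2 for ptprc.

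The share of members was lower in the nod2-/- library as deposited, and at equal depth the interval of the difference included 0. Members made up 2.58% of WT cells (interval 2.19% to 3.02%) and 1.70% of nod2-/- cells (1.37% to 2.07%), which is -0.60 (-0.99 to -0.23) as a log2 ratio. The rule needs several genes to be detected in 1 cell, and the WT library held more UMIs per cell. When every cell was thinned at random to 3000 UMIs and shallower cells were left out, 59 of 3133 WT cells (1.88%) and 40 of 2171 nod2-/- cells (1.84%) met the rule, a log2 ratio of -0.03 (-0.65 to 0.57). At 1500 UMIs, 28 of 4224 WT cells (0.663%) and 26 of 3259 nod2-/- cells (0.798%) did, a log2 ratio of 0.27 (-0.56 to 1.09). Thinning also leaves out shallow cells, and with these left out but no cell thinned, the log2 ratio was -0.44 (-0.85 to -0.04) among cells of 1500 UMIs or more and -0.39 (-0.82 to 0.03) among cells of 3000 or more. Cells with any her15.1 UMI were 4.82% of WT and 3.78% of nod2-/- cells at 3000 UMIs, a log2 ratio of -0.35 (-0.76 to 0.05), and 3.03% and 3.19% at 1500 UMIs, a ratio of 0.07 (-0.31 to 0.46). After thinning, the intervals of both measures reach from a lower to a higher share in nod2-/-.

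**Figure D1:**
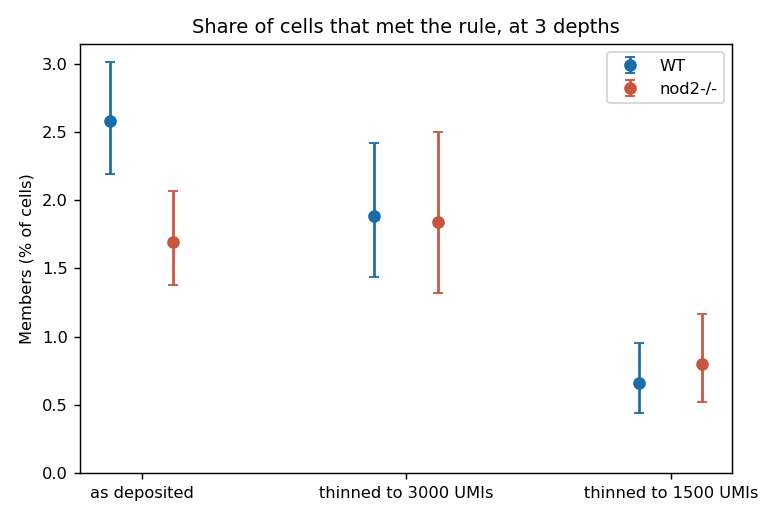
Percentage of cells that met the rule (y axis) in the WT and nod2-/- libraries as deposited and after every cell was thinned to 3000 or 1500 UMIs (x axis), with exact 95% binomial intervals as bars. The libraries lie at 2.58% and 1.70% as deposited, at 1.88% and 1.84% with 3000 UMIs, and at 0.663% and 0.798% with 1500 UMIs.

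Levels were summed over cells and expressed in CPM, and genes were set against all other cells of the same library. A gene was called higher or lower when its log2 ratio, after 5 CPM were added to each side, reached 1 or -1 in both libraries, among 4216 genes with at least 20 CPM on a side in both. By this measure 176 genes were higher in members (4.17%) and 275 were lower (6.52%). The median over all these genes was -0.21 in WT and -0.27 in nod2-/-. Log2 ratios given for single genes below are without the added CPM. As the members were selected by their counts, all of these ratios are descriptions.

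Beyond her15.1, the genes with the highest ratios were other her genes. Her15.2, which lies beside her15.1 and is nearly identical to it, was at 127 CPM in WT members and 3.05 CPM in other WT cells, and at 192 and 3.28 CPM in nod2-/-. Reads of these copies may have been divided between them or discarded, so their levels are uncertain. Her2, the next gene on the other side of her15.1 in the RefSeq annotation of the GRCz12tu assembly, was at 105 CPM in WT members and 4.26 in other cells, and at 281 and 8.28 CPM in nod2-/-. The log2 ratio of members to other cells was 4.63 (4.31 to 4.95) for her2 in WT and 5.09 (4.78 to 5.39) in nod2-/-. Of the 3 genes of this cluster, her15.1 chose the cells and her15.2 may share its reads. Her2, which the rule did not use, was above other cells in both libraries.

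Her6 and her9, which belong to the Hes1-like repressors, were the most abundant her genes apart from her15.1, which chose the cells. Her6 reached 934 CPM in WT members and 1107 CPM in nod2-/- members, against 133 and 113 CPM in other cells, and it was detected in 140 and 80 members. Her9 was at 415 and 550 CPM in members and at 55.9 and 47.9 CPM in other cells. Hes6 was higher as well, with log2 ratios of 1.66 and 1.74, but at 1500 UMIs it was in 6.85% of WT and 4.82% of nod2-/- members and in 7.43% and 2.08% of leukocytes. Hey1, a Hairy-related target, was at 16.9 and 17.6 CPM in members against 2.52 and 2.50 CPM elsewhere, below the minimum of 20 CPM.

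The her4 cluster gave a different picture. Her4.1 had 12 UMIs in 2 WT members, 10 of them in 1 cell, and none in nod2-/- members. Her4.3, her4.4 and her12 were not counted in members of either library, and all of these genes were below 1 CPM in other cells. Like her15.1 and her15.2, the her4 copies are similar enough to share reads, and a low count need not mean a low transcript level. Of the 25 gene entries in the list of Notch targets, 6 passed the minimum level, and all 6 were higher in members (her15.1, her15.2, her2, her6, her9 and hes6), with a median log2 ratio of 3.18 in WT and 3.91 in nod2-/-. The list includes her15.1, which chose the cells, and her15.2, which may share its reads. Hes6 was at 24.8 CPM in WT and 22.4 CPM in nod2-/- members, below its 44.2 and 34.1 CPM in leukocytes. Whether each listed gene responds to Notch in these cells was not tested.

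Leukocytes were set beside the members for these genes. In leukocytes, defined by ptprc with coro1a, lcp1 or laptm5, her6 was found in 12 of 373 WT and 6 of 325 nod2-/- cells, her15.2 in 1 and 0, and dld in 2 and 0. Those leukocytes were shallower, with medians of 1433 and 1153 UMIs. At 1500 UMIs per cell, her6 was detected in 61.6% of WT and 72.3% of nod2-/- members, and in 3.43% and 3.13% of leukocytes. Her9 was at 42.5% and 60.2% of thinned members, against 5.71% and 9.38% of thinned leukocytes. By summed level, her9 was at 66.3 CPM in WT and 58.2 CPM in nod2-/- leukocytes, above the 55.9 and 47.9 CPM of all cells outside the members. Whether leukocytes express her9 themselves was not tested.

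**Figure D2:**
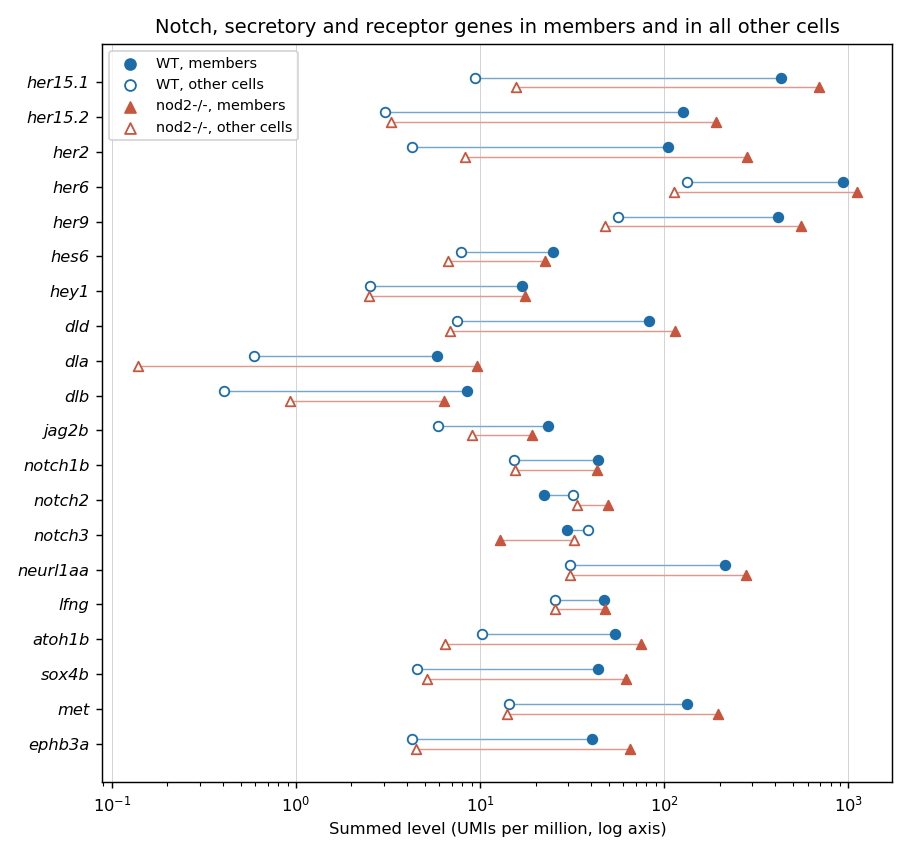
Summed levels in CPM (x axis, log scale) of her genes, Notch ligands, receptors and regulators, secretory factors and receptor kinases (y axis) in members (filled) and all other cells (open) of the WT library (circles) and the nod2-/- library (triangles). Filled symbols lie right of open ones in both libraries for every gene shown except notch2 in WT and notch3 in both. Her15.1, dld and neurl1aa were used to choose the members.

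Among Notch ligands, dld was the only one above 20 CPM in members of both libraries, at 82.5 CPM in WT and 115 CPM in nod2-/- (7.46 and 6.85 CPM in other cells). It was a rule gene. The other Delta genes dla and dlb were rare, with 5.82 and 8.46 CPM in WT members and 9.58 and 6.39 CPM in nod2-/- members, and each was below 1 CPM in other cells. The Serrate-type ligand jag2b was at 23.3 and 19.2 CPM in members and at 5.91 and 9.02 CPM elsewhere. Dlc, dll4 and jag1b differed little, with log2 ratios between -0.41 and 0.23 in either library.

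Of the receptors, notch1b was higher in members in both libraries, at 43.9 and 43.1 CPM against 15.3 and 15.4 CPM, with log2 ratios of 1.52 and 1.49. Notch3 had log2 ratios of -0.39 in WT and -1.34 in nod2-/- and was not called. Notch2 lay below other cells in WT (22.2 against 32.1 CPM) and above them in nod2-/- (49.5 against 33.5 CPM). Members thus had no common direction across the 4 receptors.

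The machinery that all Notch-competent cells share was near the level of other cells. In the list for ligand endocytosis, receptor glycosylation and cleavage, 1 of 6 measured genes was higher, and this was neurl1aa, a rule gene whose relatives ubiquitinate Delta to drive its uptake (215 and 276 CPM in members, 30.8 and 30.9 CPM elsewhere). Lfng, a Fringe enzyme that adds sugars to Notch, had log2 ratios of 0.89 and 0.90 and was not called. The ligase mib1 was at 0.24 in both libraries, the protease adam10a at -0.29 and -0.36, and numb, an inhibitor of Notch, at -0.85 and -1.13. None of the 3 measured genes of the nuclear complex was called, although rbpjb was at 95.7 and 91.1 CPM in members against 55.5 and 55.8 CPM.

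Factors of secretory fate were higher beside the Notch targets. Of 7 measured entries on this list, 4 were higher, among them atoh1b, sox4b and 1 of the sox4a entries (a rule gene), with list medians of 1.95 in WT and 2.52 in nod2-/-. Atoh1b, the Atonal factor of secretory commitment, was at 53.9 CPM in WT members and 75.1 CPM in nod2-/- members, against 10.199 and 6.48 CPM. It was detected in 58 WT and 27 nod2-/- members. Sox4b stood at 43.9 and 62.3 CPM against 4.54 and 5.13 CPM. Foxa3, linked to goblet cells in mice, had log2 ratios of 0.94 and 1.86 and was not called. Xbp1, a regulator of secretory load, had log2 ratios of -0.01 and -0.22.

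As every member has her15.1 by the rule, detection of a secretory factor beside it is fixed by the choice of cells, and the splits below only describe how levels varied among members. In WT, atoh1b was detected in 39 of 96 members with dld and in 19 of 56 without it. In nod2-/-, the counts were 20 of 50 and 7 of 45. Members with dld were deeper (medians of 9150.5 against 6956.5 UMIs in WT and 5233.5 against 3932 in nod2-/-). Summed atoh1b levels were 55.2 CPM with dld and 51.2 CPM without in WT, a log2 ratio of 0.11 (-0.52 to 0.77), and 107 against 30.4 CPM in nod2-/-, a log2 ratio of 1.82 (0.70 to 3.13). Her15.1 was at 463 CPM in WT members with atoh1b and 414 CPM in those without, and at 768 and 651 CPM in nod2-/-. Her6 was at 1137 against 821 CPM in WT and 935 against 1206 CPM in nod2-/-, so its direction was opposite in the libraries. Her2 was opposite too, at 185 against 60.8 CPM in WT and 228 against 311 CPM in nod2-/-.

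Members with a her2 UMI, 55 in WT and 42 in nod2-/-, also carried more of other her genes. Her6 was at 1281 CPM with her2 and 738 CPM without it in WT, a log2 ratio of 0.80 (0.66 to 0.93), and at 1641 and 736 CPM in nod2-/-, a ratio of 1.16 (0.93 to 1.38). Her15.1 had ratios of 0.81 (0.61 to 1.02) and 1.105 (0.82 to 1.39) in the same split, but it chose the cells, and its levels describe that choice. Her9 differed less, by 0.34 (0.13 to 0.55) and 0.19 (-0.13 to 0.50). The goblet marker agr2 was lower where her2 was present, at 427 against 847 CPM in WT and 101 against 831 CPM in nod2-/-. Median depths were 8199 against 7546 UMIs in WT and 4267.5 against 4788 in nod2-/-, so the members with her2 were not deeper in both libraries. The part of depth or of differentiated markers in this split was not tested.

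Some receptor genes were higher, although the list of growth factor receptors as a whole was not. Met, the receptor of hepatocyte growth factor, was at 132 CPM in WT members and 195 CPM in nod2-/- members, against 14.3 and 14.0 CPM, and was detected in 105 and 61 members. Ephb3a, an Eph receptor whose mouse relative marks the crypt base, was at 40.7 and 65.5 CPM against 4.26 and 4.49 CPM. Fgfr2, a fibroblast growth factor receptor, had log2 ratios of 1.44 and 2.33. Erbb3a was lower (-1.31 and -1.34), and egfra was not called (-0.69 and -1.18). Of 9 measured genes on the list of growth factor receptors, 2 were higher (met and fgfr2) and 1 lower (erbb3a), with medians of -0.30 and -0.31. Over all genes, 4.17% were higher and 6.52% lower, with medians of -0.21 and -0.27.

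Few Wnt and BMP pathway genes were called against other cells. Of 6 measured Wnt genes, none was higher and 1 was lower, tcf7l1a, a TCF-family factor (-1.65 and -1.36). Over all genes, 4.17% were higher and 6.52% lower, so a list of 6 would hold few calls at these shares. Lgr4, a receptor of R-spondins, was at 62.4 and 52.7 CPM in members and at 135 and 108 CPM elsewhere. Axin2, a feedback target of Wnt, was at 20.6 CPM in WT members (30 cells) and 6.39 CPM in nod2-/- members (4 cells), against 14.1 and 9.81 CPM. Among 8 BMP and TGF-beta genes, id1 (1.36 and 1.77) and tgif1 (1.57 and 1.80) were higher, and none was lower in both. Id1 encodes an inhibitor of basic helix-loop-helix factors, and tgif1 a repressor of SMAD signaling. Of 13 measured stem and progenitor genes, 4 were higher: met, ephb3a, cdca7a and the rule gene myb.

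DNA replication genes were higher as a group. All 9 genes of this list that passed the minimum were higher, with medians of 1.97 in WT and 2.05 in nod2-/-. Pcna, the sliding clamp of the replication fork, was at 95.7 and 84.7 CPM against 13.8 and 16.6 CPM. Mcm2, mcm3, mcm4, mcm5 and mcm6, subunits of the replicative helicase, had log2 ratios from 2.53 to 2.80 in WT and from 2.47 to 2.94 in nod2-/-. No mitosis gene reached the minimum level. Cells with 3 or more of 4 cycling genes were excluded by the rule, which bears on that list directly. The rule also bears on the replication genes, which were concentrated in members with the companion stmn1a, as given below. Their higher level over all members is thus in part a description of the choice. The sum over the mitosis list was 25.9 CPM in WT members and 23.7 CPM in other cells, and 19.2 and 35.5 CPM in nod2-/-.

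Genes of the G1 phase moved in both directions. The cyclin ccnd1 (61.3 and 51.1 CPM against 18.6 and 11.2) and its partner kinase cdk6 (40.2 and 60.7 against 17.1 and 18.3) were higher. The cyclin ccnd2a (16.9 and 20.8 against 72.6 and 69.6) and cdkn1ba, an inhibitor of cyclin-dependent kinases (7.93 and 3.19 against 42.3 and 30.5), were lower. The related inhibitor cdkn1bb was not called, with log2 ratios of 0.33 and 0.62. Ccnd1 and ccnd2a thus lay on opposite sides in both libraries.

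Replication genes were concentrated in members with stmn1a, a rule gene that encodes a regulator of microtubules. Pcna was detected in 37 of 75 WT members with stmn1a and in 8 of 77 without it, and in 23 of 47 and 2 of 48 nod2-/- members. Its summed level was 161 CPM against 14.3 CPM in WT, a log2 ratio of 3.50 (2.66 to 4.48), and 162 against 6.41 CPM in nod2-/-, a log2 ratio of 4.66 (2.74 to 7.75). In all other cells pcna was at 13.8 CPM in WT and 16.6 CPM in nod2-/-. Members without stmn1a were thus near that level in WT and below it in nod2-/-. The sum of mcm2 to mcm7 was 317 against 63.0 CPM in WT and 398 against 32.0 CPM in nod2-/-. Median depths were 9018 against 6927 UMIs in WT and 5122 against 3895.5 in nod2-/-. Her15.1 was near equal between the same cells, at 403 and 467 CPM in WT and 663 and 724 CPM in nod2-/-. Atoh1b was at 46.7 and 63.0 CPM in WT and 89.2 and 60.9 CPM in nod2-/-, without a common direction. The split by dld did not separate the replication genes: mcm2 to mcm7 had log2 ratios of -0.19 (-0.50 to 0.12) in WT and 0.21 (-0.31 to 0.74) in nod2-/- between members with and without dld. As cells within a library are not replicates, these splits are descriptions of the cells captured.

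Other genes of immature cells were higher on a broad front. Of 21 measured tubulin, high mobility group and related genes, 13 were higher and none lower, with medians of 1.15 and 1.26. Si:ch211-222l21.1, the most abundant of them, was at 1107 CPM in WT members and 1382 CPM in nod2-/- members, against 235 and 260 CPM. It was detected in 151 of 152 WT and 89 of 95 nod2-/- members. The chromatin protein gene hmgb3a was at 69.8 and 101 CPM against 16.9 and 17.4 CPM, and the histone variant gene h2az2b at 227 and 304 CPM against 63.0 and 64.3 CPM. Of 16 measured genes of ribosome biogenesis, 5 were higher (npm1a, nop58, fbl, dkc1 and nhp2) and none lower, with medians of 0.77 and 0.93. Myca and mycb, growth regulators that act on ribosome genes, had log2 ratios of 1.59 and 1.20 in WT and 1.18 and 0.93 in nod2-/-, and were not called in both.

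Stress genes moved with the members. Of 18 measured dissociation and stress genes, 9 were higher and none lower, with medians of 0.997 in WT and 1.17 in nod2-/-. Egr2a was highest by ratio (2.67 and 2.56), and hsp70.1 was at 1367 and 1554 CPM against 569 and 675 CPM. The part of tissue dissociation in any ratio given here was not tested.

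Of 10 measured genes of epithelial identity, 2 were higher in members and none lower, beside 4.17% and 6.52% over all genes. Their medians were 0.15 in WT and 0.43 in nod2-/-. Krt18a.1, a keratin gene, was found in 150 of 152 WT and 88 of 95 nod2-/- members, at 912 and 794 CPM against 387 and 218 CPM, and in 23 of 373 WT and 14 of 325 nod2-/- leukocytes. The adhesion gene epcam was higher too (log2 ratios of 1.31 and 1.25), but it was detected in only 60 of 152 WT and 16 of 95 nod2-/- members. Cdh1, cldn15la and krt4 were not called. In members, vil1, a brush border gene, was at 454 and 380 CPM against 901 and 752 CPM.

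Outside the gene lists, the genes leading in members by the smaller of both ratios included tnfrsf11a, the RANK receptor gene (107 and 163 CPM against 16.1 and 18.6), rbm24a, an RNA-binding protein gene (132 and 141 against 22.1 and 13.1), and prickle1b, a gene of planar cell polarity (41.8 and 47.9 against 4.38 and 3.84). Gig2h (189 and 204 CPM), grasp (112 and 126), fam189a1 (70.3 and 104) and lzts1 (69.8 and 43.1) were among them. The uncharacterized genes zgc:162509 (77.7 and 92.7 CPM) and si:ch211-213d14.2 (94.1 and 169 CPM) had log2 ratios of 3.33 and 3.05 in WT and 3.50 and 4.13 in nod2-/-. These genes were spread over many cells: tnfrsf11a was counted in 99 WT and 54 nod2-/- members, with at most 8 UMIs in a cell. Si:ch211-173a9.6, in contrast, rested on single cells, with 375 of its 513 WT UMIs in 1 member and 290 of 306 nod2-/- UMIs in another.

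The lowest genes included hormone, chemokine and enzyme genes. Insl5a and ccka, hormone genes of enteroendocrine cells, were at 6.34 and 2.64 CPM in WT members against 298 and 45.2 CPM, and at 4.79 and 3.19 CPM against 521 and 62.4 CPM in nod2-/-. Galn, a neuropeptide gene, was counted once in WT members. The chemokine ccl36.1 was at 0.53 CPM in WT members and 62.5 CPM in other WT cells. The intestinal phosphatase alpi.2 was at 20.6 and 15.97 CPM against 272 and 189 CPM, zanl at 46.0 and 54.3 against 520 and 333, and the carboxypeptidase gene cpo at 8.46 and 3.19 against 109 and 77.0. Ccl38.6, FP236331.1 and si:zfos-2372e4.1 were each counted at most once in the members of a library. The rule itself left out cells with neurod1, a factor of enteroendocrine cells, and cells with ptprc, a leukocyte marker. Low levels of genes of those cells thus follow in part from the choice.

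**Figure D3:**
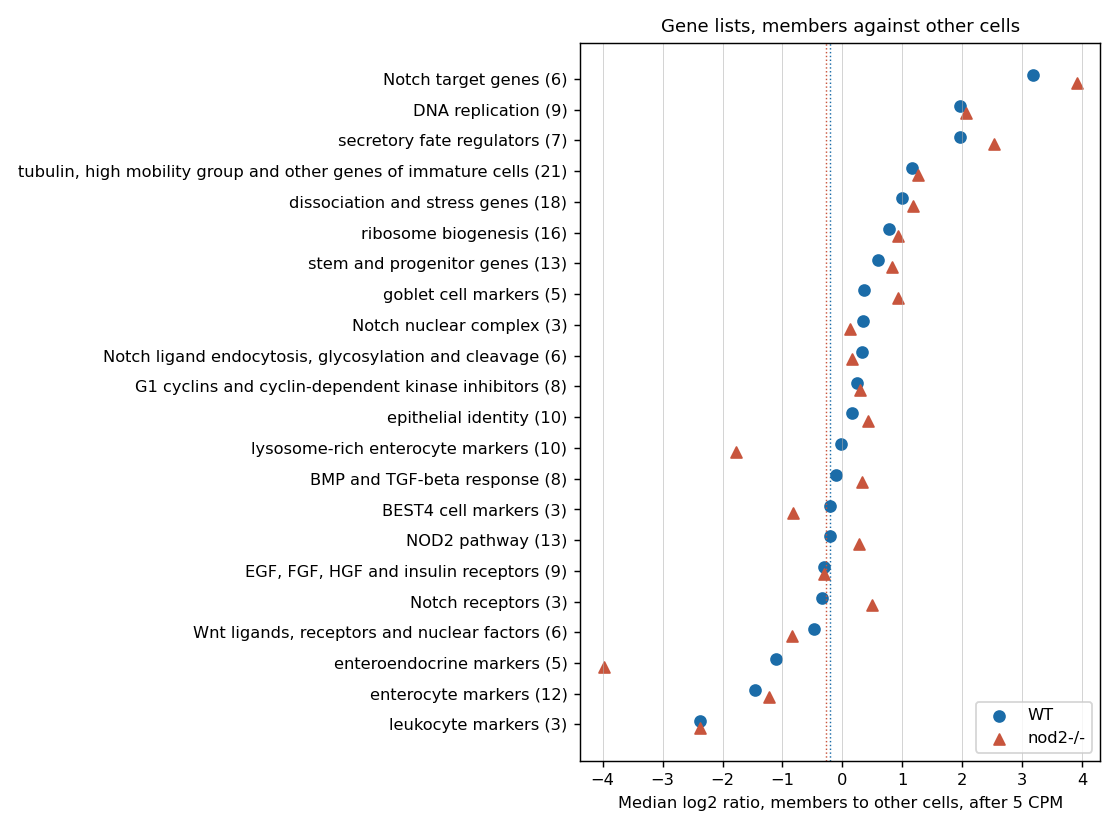
Median log2 ratio of members to other cells after 5 CPM were added (x axis) for each gene list with at least 3 measured genes, the number in parentheses (y axis), in WT (circles) and nod2-/- (triangles). Dotted lines mark the medians over all measured genes, -0.21 and -0.27, and Notch targets (3.18 and 3.91) and replication genes (1.97 and 2.05) stand to the right while enterocyte markers (-1.46 and -1.22) stand to the left.

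Markers of differentiated cells were present in members at a lower level, and unevenly. Of 12 enterocyte markers, 10 were lower in members and none higher, with medians of -1.46 and -1.22. Fabp2, a fatty acid binding protein, was still at 2762 CPM in WT members and 3109 CPM in nod2-/- members. It was detected in 117 and 67 members, but also in 168 of 373 WT and 129 of 325 nod2-/- leukocytes, so detection of fabp2 does not by itself mark a member as an enterocyte. Summed over the lists, stromal markers were at 1.59 and 11.2 CPM, hepatocyte markers at 8.46 and 22.4 CPM and erythrocyte markers at 1.06 and 1.60 CPM. Leukocyte markers summed to 153 and 326 CPM in members, against 356 and 400 CPM in other cells. Nearly all of that was cd74a (143 and 308 CPM), while coro1a was counted 0 times in WT members and once in nod2-/- members, and ptprc was set to 0 by the rule.

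A small group of members carried the markers of lysosome-rich enterocytes, the protein-absorbing cells of the posterior gut. At least 5 of 10 such markers were detected in 16 WT and 4 nod2-/- members, with median depths of 32712.5 and 14818.5 UMIs, while 136 and 91 members had 4 or fewer. These 16 WT cells held 28.9% of all UMIs of WT members, and the 4 nod2-/- cells 10.1%. Fabp6, a bile acid binding protein of these enterocytes, was at 49452 CPM in the 16 WT cells and 866 CPM in the rest, and 95.9% of its UMIs in WT members lay in them. In nod2-/-, the levels were 30525 and 238 CPM. In the same WT cells, her6 was at 302 CPM against 1190 CPM, a log2 ratio of -1.98 (-2.22 to -1.74), and atoh1b at 10.99 against 71.3 CPM, a log2 ratio of -2.70 (-4.18 to -1.52). In nod2-/- members, her6 was at 444 against 1181 CPM, and atoh1b differed by 0.09 (-1.61 to 1.42). Whether these deep cells are single cells or pairs captured together was not tested.

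**Figure D4:**
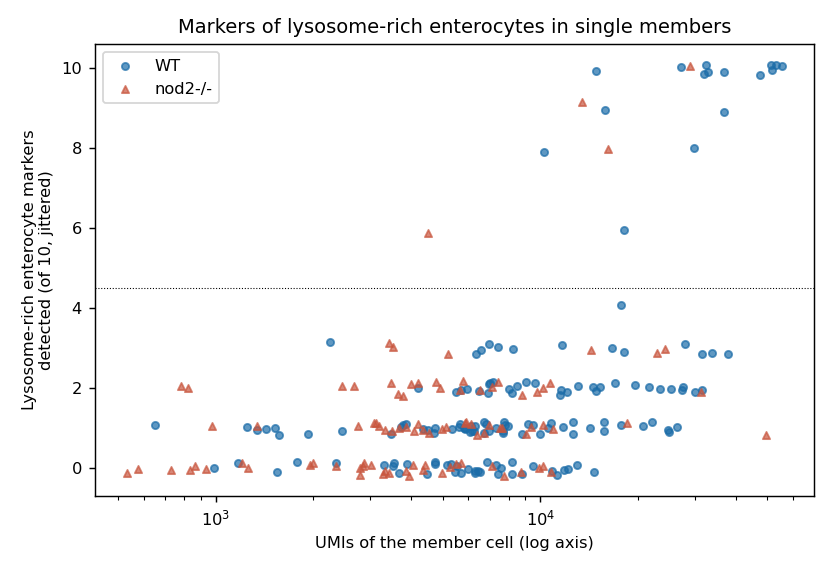
Number of lysosome-rich enterocyte markers detected (y axis, of 10, with a small random shift) against the UMIs of each member (x axis, log scale) in WT (circles) and nod2-/- (triangles). Above the dotted line lie 16 WT and 4 nod2-/- members, and their median depths are 32712.5 and 14818.5 UMIs, against 7763 and 4429 over all members.

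Other marker lists were also found in some members. At least 9 of 12 enterocyte markers were detected in 43 WT and 23 nod2-/- members, 3 or more of 5 markers of BEST4 cells in 19 and 4, and 5 or more of 7 goblet markers in 8 and 3. At least 3 enteroendocrine markers were seen in 3 WT members and 1 nod2-/- member, and 5 or more of 14 pancreatic acinar markers in 4 WT members and 0 nod2-/- members. In all, 69 WT and 28 nod2-/- members reached at least 1 of these cutoffs or that for lysosome-rich enterocytes, which were set after the counts had been seen. Without them, the remaining 83 WT and 67 nod2-/- members had her15.1 levels of 931 and 1268 CPM, her6 levels of 1785 and 1862 CPM, her9 levels of 840 and 906 CPM, dld levels of 166 and 173 CPM, and met levels of 261 and 293 CPM. Each of these was above its value over all members, and 171 of the 176 genes called higher in members were also called in this smaller set, among 482 called higher. The members left out were deeper, with medians of 15845 against 5878 UMIs in WT and 10201 against 3645 in nod2-/-. Her15.1 and dld are rule genes, so their values depend on the choice of cells and on depth. The smaller set held 483340 of the 1891651 UMIs of WT members and 259457 of the 626002 UMIs of nod2-/- members. Most UMIs of members thus lay in cells that reached a cutoff, in both libraries.

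The nearest groups outside the rule differed from members in distinct ways. Cells with her15.1 but fewer than 2 companions had her6 at 1029 and 1282 CPM and her9 at 387 and 420 CPM, beside 934 and 1107 CPM and 415 and 550 CPM in members. Genes that the rule had not used directly differed in both directions. Met was at 32.5 and 51.3 CPM in them, and mcm2 to mcm7 together at 29.2 and 19.2 CPM (204 and 216 in members). Notch2 was at 159 and 199 CPM in them (22.2 and 49.5 in members), epcam at 104 and 151 CPM (55.0 and 54.3) and krt18a.1 at 1796 and 1064 CPM (912 and 794). Their agr2 level, a goblet marker, was 2264 and 1394 CPM against 696 and 532 CPM in members. Cells with at least 2 companions and no her15.1 had lower her6 (340 and 348 CPM) and her9 (168 and 171 CPM), and her2 at 13.0 and 8.18 CPM, while mcm2 to mcm7 stood at 112 and 163 CPM. Median depths of the first group were 4805 and 2010.5 UMIs, and of the second 5870 and 3992. As her15.1 and the companions set these groups apart, no test was made between them. Replication genes went with the companion stmn1a among members, so the mcm levels of these groups are not independent of the rule.

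Between genotypes, members were compared over the 4415 genes that reached 20 CPM in either library, again with 5 CPM added before a call. In nod2-/- members 90 genes were higher (2.04%) and 194 lower (4.39%), and the median log2 ratio was -0.05. Most of these calls were lost without the members rich in differentiated markers, where 37 of the 90 and 37 of the 194 were called again among 504 higher and 235 lower genes. Without the members above the 95th percentile of UMIs, 39 of the 90 and 101 of the 194 were called again. Of the 176 genes that were higher in members than in other cells, 3 were called higher and 1 lower in nod2-/-. The others were not called between genotypes.

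Most of the largest differences were carried by few cells or by the whole library. Among the 10 genes most raised in nod2-/- members, krt15, cnfn, krt94, krt91, BX908782.2, ahnak, BX855618.1 and s100a10b each had most of their UMIs in 1 member. The highest member held 390 of 392 krt15 UMIs, 533 of 545 krt91 UMIs and 122 of 128 cnfn UMIs. Krt91 and krt15 are keratins, and cnfn encodes cornifelin, a protein of cornified envelopes. With the highest member of each library left out, the log2 ratio of krt91 after 5 CPM was -0.62 in place of 4.12. One nod2-/- member with 49497 UMIs had at least 3 of krt91, krt94, krt15 and cnfn. In all, 22 of the 90 genes had 50% or more of their UMIs in 1 cell, and 54 of the 90 were still past the call without the highest member of each library.

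The other genes in that group were vitellogenins, the yolk precursors made by the liver under estrogen. Vtg1 was counted 2 times in 2 WT members and 46 times in 34 nod2-/- members, with at most 3 UMIs in a cell (1.06 and 73.5 CPM), a log2 ratio of 6.12 (4.18 to 9.21). Vtg2 was not counted in WT members and had 15 UMIs in 12 nod2-/- members, at least 15.11-fold higher against a floor of 3 UMIs over the members. In other cells, vtg1 stood at 2.05 and 238 CPM, and it was found in 138 of 325 nod2-/- leukocytes (42.5%), a higher share than in members (35.8%). At 1500 UMIs it was in 12.05% of nod2-/- members and 35.4% of leukocytes. The share of nod2-/- members with vtg1 was thus below that of leukocytes at both depths.

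Among the 10 genes most lowered in nod2-/- members, penka, gcgb and pyyb are hormone or neuropeptide genes. Penka had 266 of its 342 WT UMIs in 1 member and 1 UMI in nod2-/-. Gcgb had all 99 UMIs in 1 WT member, and pyyb 114 of 115. A second set was nearly absent from the whole nod2-/- library. Si:ch211-214b16.4 (82 against 0 UMIs in members) and si:dkey-265e7.1 (94 against 1) were at 46.7 against 0.23 CPM and 63.8 against 1.53 CPM in other cells. The histone entry hist1h4l had 125 UMIs in WT members and none in nod2-/- members, at least 13.8-fold lower, and it was at 19.4 CPM in other WT cells and 0 CPM in other nod2-/- cells. Cyp2k22, a cytochrome P450 gene, was at 93.0 and 4.79 CPM in members and at 72.8 and 23.7 CPM elsewhere. Si:ch211-139a5.9 (273 against 11 UMIs) and dbn1 (53 against 0) were also among the 10.

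Most genes of lysosome-rich enterocytes were also lower in nod2-/- members. Of 10 markers, 6 were called lower and none higher, beside 4.39% lower and 2.04% higher over all genes. Their median was -1.11, while the median in other cells was 0.51. Fabp6 was at 14885 CPM in WT members and 3289 CPM in nod2-/- members, a log2 ratio of -2.18 (-2.24 to -2.11), and at 8132 and 8588 CPM in other cells. Slc10a2, the bile acid transporter, was at 238 and 46.3 CPM. These counts came mostly from the deep cells described above. When all members rich in differentiated markers were left out, fabp6 was at 279 CPM in WT and 420 CPM in nod2-/-, and slc10a2 was counted 2 times and 1 time. The cutoffs used these same markers and those of BEST4 cells, so their lower levels in the smaller set follow from how it was made. Of the 194 genes lower in nod2-/- members, 99 had 50% or more of their WT UMIs in the 16 WT cells with at least 5 of these markers. Otop2 and ca4b, markers of BEST4 cells, were lower as well (-1.11 and -1.82), and in the smaller set they were counted 1 and 0 times and 5 and 4 times.

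**Figure D5:**
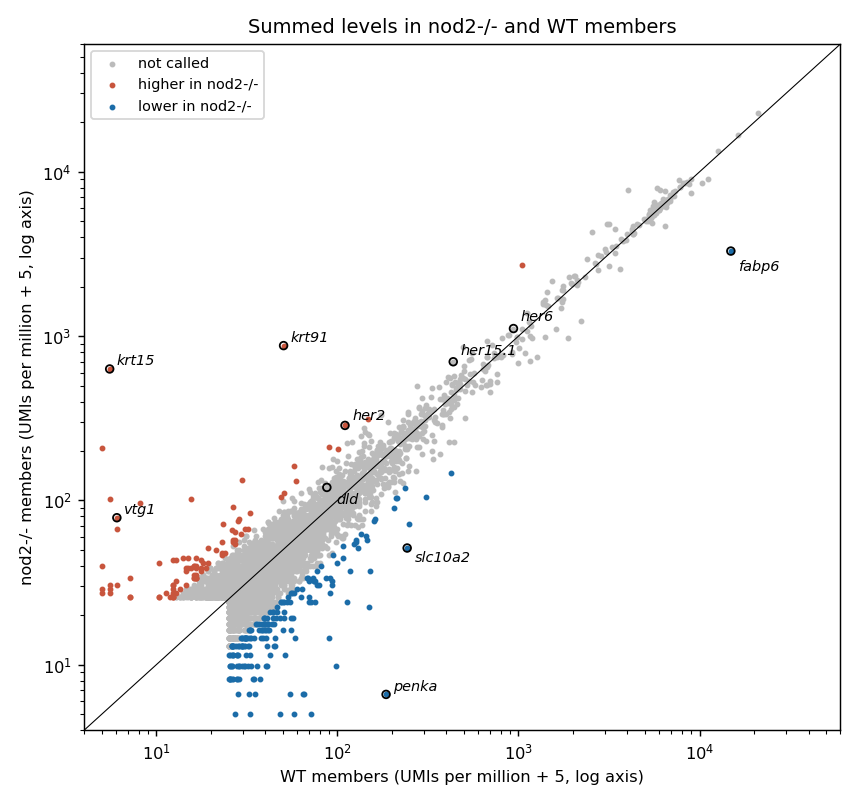
Summed level of each measured gene in WT members (x axis) and nod2-/- members (y axis), both in CPM with 5 added, on log axes, with genes called higher or lower in nod2-/- in color and the line of equality. Her6 and the rule genes her15.1 and dld lie near the line, while krt15 and krt91 (1 cell) and vtg1 lie above it and fabp6, slc10a2 and penka below.

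Among Notch genes, her2 was the only target called between genotypes. Its level was 105 CPM in 55 WT members and 281 CPM in 42 nod2-/- members, a log2 ratio of 1.42 (1.12 to 1.72), and no member held more than 22 UMIs. In other cells her2 was at 4.26 and 8.28 CPM. Among the members not rich in differentiated markers, her2 was at 252 and 528 CPM, a log2 ratio of 1.06 (0.70 to 1.43). With at least 3 companion genes required, the value after 5 CPM was 0.64, short of the call, against 1.38 for all members and 1.41 at 3000 UMIs per cell. Her15.1 (0.68, 0.51 to 0.85), her15.2 (0.60, 0.27 to 0.92), her6 (0.25, 0.12 to 0.37) and her9 (0.41, 0.22 to 0.59) were above 0 in nod2-/- members and not called. Her15.1 is a rule gene, of which each member holds at least 1 UMI at any depth, so its ratio is a description of the choice. The median member held 4 her15.1 UMIs in WT and 2 in nod2-/-. In the smaller set, the values of her6 and her9 were 0.06 (-0.10 to 0.22) and 0.11 (-0.13 to 0.34). The ligand dld, also a rule gene, had a log2 ratio of 0.48 (0.06 to 0.89) over all members and 0.07 (-0.49 to 0.61) in the smaller set.

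Notch2 was called higher in nod2-/- members, with 42 UMIs in 19 WT members and 31 UMIs in 17 nod2-/- members, a log2 ratio of 1.16 (0.44 to 1.86). It was in 12.5% and 17.9% of members and in 67 of 373 WT and 52 of 325 nod2-/- leukocytes, where its level was higher than in members (96.2 and 124 CPM). Notch3 was at 29.6 and 12.8 CPM (-1.21, -2.49 to -0.14) and not called. Of the sox4a entries, 1 was called higher, at 95.7 and 200 CPM (1.06, 0.72 to 1.40), and it is a rule gene. Over the smaller set the value for sox4a was 0.53 (0.12 to 0.93).

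Growth and replication genes were not called between genotypes, apart from axin2. Myca was at 53.9 and 31.9 CPM (-0.76, -1.53 to -0.05) and mycb at 77.7 and 49.5 CPM (-0.65, -1.26 to -0.08). Axin2 was called lower, with 39 UMIs in 30 WT members and 4 UMIs in 4 nod2-/- members (-1.69, -3.64 to -0.22). In the smaller set it had 3 and 2 UMIs. None of 11 measured replication genes was called, with a median of -0.14. Over all genes, 2.04% were called higher and 4.39% lower, so lists of this size would hold few calls at these shares. Pcna was at 95.7 and 84.7 CPM and mcm2 at 53.4 and 52.7 CPM. Ribosome biogenesis genes had a median of -0.28, with 15 of 19 below 0 and none called, while the same genes had a median of -0.35 in other cells. Genes of immature cells had a median of 0.22, with 19 of 23 above 0 and none called, and a median of 0.13 in other cells. Over all 4415 genes, 2026 were above 0 and 2389 below.

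Of 13 measured genes of the NOD2 pathway, 1 was called higher in nod2-/- members and none lower, beside 2.04% and 4.39% over all genes. This was map3k7, the TAK1 kinase gene (13.7 and 33.5 CPM, from 26 and 21 UMIs). The log2 ratio of map3k7 was 1.29 (0.38 to 2.17), against -0.07 in other cells. The NF-kappaB inhibitor genes nfkbiaa and nfkbiab were higher in members than in other cells (log2 ratios of 1.41 and 1.30 in WT, 1.44 and 1.15 in nod2-/-), as was rel, and between genotypes they were at 0.12, 0.20 and 0.05. Ripk2, the kinase downstream of NOD2, was counted 5 times in WT members and 0 times in nod2-/- members, where 3 UMIs are 4.79 CPM. Slc15a1b, a peptide transporter, was lower in members than in other cells (-2.42 and -1.55). Junbb, an AP-1 subunit gene, and cd74a, the invariant chain gene, were called higher in nod2-/- members (1.27, 0.62 to 1.90, and 1.11, 0.84 to 1.38). Among the members not rich in differentiated markers, cd74a was at 254 and 432 CPM, a log2 ratio of 0.76 (0.38 to 1.14), short of the call. Cd74a was found in 51.7% of WT and 50.2% of nod2-/- leukocytes, which express it in their own right. Of the estrogen receptor genes, esr2b was at 57.6 and 105 CPM in members and at 92.8 and 237 CPM in other cells, and esr2a at 34.4 and 31.9 CPM, and neither was called.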

How the data were processed

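Whole intestines of 6-month-old zebrafish were dissociated and run on the 10x Chromium 3' v3.1 platform, 1 library per genotype. The authors aligned reads with Cell Ranger 7.0.1 (submitters' notes, genome build GRCz11) and deposited UMI counts per gene and cell, without normalization. The deposited cells are as many as the paper reports, and they include cells outside the cell filter given in its methods. All 11490 deposited cells and 25432 genes were used, because 138 of 152 WT and 79 of 95 nod2-/- members exceed the upper limit of 2500 UMIs given there. The filter was an alternative.

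Counts were summed over members and over other cells and divided by their totals (CPM) with Python 3.11.15 (numpy 2.4.6; pandas 2.3.3; scipy 1.17.1 for intervals). TMM factors came from edgeR 4.0.16 in R 4.3.3. Genes with at least 20 CPM were called at a log2 ratio of 1 after adding 5 CPM. Ratios carry 95% exact conditional binomial intervals and shares Clopper-Pearson intervals. These cover counting error only, as do floors of 3 UMIs. No p-value was computed, since cells are not replicates. Thinning drew each cell once, without replacement. No doublet caller was run; deep members were left out as an alternative. The arithmetic was tested on simulated data.

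Members and gene lists were chosen with earlier results of these data known. The genes named are the rule genes, the genes of 30 lists, the 20 highest and 10 lowest genes in members, and the 10 largest rises and falls between genotypes. Of 461 listed symbols, 16 were not analysed here. Entries that share a symbol were kept apart, except for rule genes in the rule. Figures were drawn with matplotlib 3.10.9. Some genes that met the rule for naming are not reported here.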

Additional observations from a re-analysis of the deposited data

Results flagged for a closer look

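For 11 genes, of which tmigd1, dab2, amn and lrp2b were not given above, the log2 ratio of nod2-/- to WT had opposite signs in members and in other cells, with an interval in other cells that left out 0. The difference between members and other cells was not tested, and there is 1 library per genotype. After 5 CPM were added, the members' ratios were -2.18 for fabp6, -2.24 for slc10a2, -2.03 for tmigd1, -1.24 for dab2, -1.22 for amn and -1.001 for lrp2b, all markers of lysosome-rich enterocytes, while in other cells the ratios without added CPM lay between 0.08 (fabp6) and 0.59 (amn). Penka (-4.82) and pyyb (-3.32) had 266 of 342 and 114 of 115 WT UMIs in 1 member, and other cells were at 0.78 and 0.28. Dbn1 (-2.72) had 53 UMIs in 14 WT members, with 0.57 in other cells. BX908782.2 (3.56) and BX855618.1 (3.01) were higher in nod2-/- members, with 52 of 57 and 22 of 22 UMIs in 1 member, and lower in other cells (-0.59 and -0.29).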

How the results depend on the processing

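No paired analysis was possible because each genotype has 1 library. The share of members had a log2 ratio of -0.60 between genotypes, which became 0.27 at 1500 UMIs per cell, -0.0315 at 3000 UMIs, -0.16 with the methods' cell filter and -1.16 with at least 3 companion genes. It lay between -0.68 and -0.25 under the other alternatives. Thinning to 3000 UMIs and leaving out members rich in differentiated markers were chosen after the data had been seen.

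Counts of genes are given as higher and lower in members, then higher and lower in nod2-/-, where the reported counts are 176, 275, 90 and 194. With an offset of 1 CPM, 136 genes were higher in nod2-/-. Without the minimum level, 424 were lower in members, 263 higher and 495 lower in nod2-/-. With the mean over cells of each cell's CPM, the first 3 counts were 274, 895 and 425. With 3 or more companions, 150 and 320 differed between genotypes. Leaving out members above the 95th percentile of UMIs gave 332, 761 and 143 for the first 3, and leaving out members rich in differentiated markers 482, 1361 and 504. All 4 counts were 491, 1086, 1021 and 688 at 3000 UMIs. They were 793, 1237, 2377 and 2889 at 1500 UMIs and 852, 1419, 2254 and 2915 with the methods' filter. In those 2 settings 1 UMI is worth 23.8 to 51.1 CPM, more than the minimum of 20 CPM, so ratios of single genes were not taken from them.

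For single genes, 3 ratios of members to other cells turned at si:ch211-173a9.6 in nod2-/- (-4.53 with 3 companions, -0.26 at 3000 UMIs, -0.62 without rich members) and 2 in WT (-0.72 without the deepest members, -0.26 without rich members), and FP236331.1 in nod2-/- was at 0.13 with 3000 UMIs. Between genotypes, krt91 was at -1.57 without the deepest members, -1.05 at 3000 UMIs and -1.66 without rich members. Prss59.1 was at 0.84 with 3 companions, 2.12 at 3000 UMIs and 0.0676 without rich members. At 3000 UMIs, si:ch211-139a5.9 was at 2.58, dab2 at 0.32 and tmigd1 at 1.52. Without rich members, si:ch211-139a5.9 was at 2.28, axin2 at 0.18, amn at 1.35, lrp2b at 0.13, ca4b at 0.41, fabp6 at 0.58 and tmigd1 at 1.78. The causes were not tested. The other ratios followed here, of genes that were called or ranked for naming, kept their sign. Ratios of other genes were not followed in this way. Some of these turned between genotypes without rich members. Without added CPM, notch3 was then at 0.48 (-2.29 to 3.05), pcna at 0.14 (-0.45 to 0.71) and mcm2 at 0.74 (-0.08 to 1.55). Depth limits genes below about 20 CPM in nod2-/- members, where 1 UMI is 1.60 CPM.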
